A study of Schizosaccharomyces pombe with 2 samples.

Results

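The arms of chromosome III of fission yeast (Schizosaccharomyces pombe), away from its centromere, are described here from a genome-wide contact map. They were taken as all 10 kb bins of III that carry values and whose middle lies more than 200 kb from the middle of its gene-free centromeric stretch. This rule used positions only and gave 198 of the 1218 bins with values, 86 on the left arm and 112 on the right arm. The same rule gave 508 bins on the arms of I and 405 on the arms of II, which serve as the comparison. Bins are given by their start on ASM294v2, which is the build in the submitters' processing notes.

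The map was made by Hi-C, in which chromatin is fixed, cut and re-ligated so that sequenced junctions report which loci lay close together. Both samples of the series are of the strain labelled sap1-1, which carries a mutated form of the essential DNA-binding protein Sap1, and no other allele is given in the labels. Logarithmic cultures in YEA rich medium were grown at 26 °C, moved to 33 °C for 6 hours, fixed in 3% formaldehyde for 20 min and cut with HindIII. The design has 2 replicates in 1 group, not stated to come from separate cultures, and no control, so nothing below compares the mutant with another strain.

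Both samples share 1 matrix, and whether it pools them is not stated. No replicate error could therefore be had and no test between groups was possible. Each SD below is a spread over bins or arms, and each interval is a 95% Poisson interval of the summed reads, which covers counting error only. The map held 37526864 recovered reads in 1258 bins, 40 of them blank. Reads per bin on the arms of III ran from 10086 to 87029 with a median of 57312.5, against a median of 59381 on the arms of I and II. A bin pair joining the arms of III to those of I or II had a median of 11 reads.

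Fission yeast holds its centromeres together at the spindle pole body during interphase, and its telomeres sit at the nuclear envelope, so that chromosome arms run roughly side by side. Chromosome III is the shortest of the 3 and carries the ribosomal DNA repeats at its ends, next to the nucleolus. Along the arms, chromatin of this yeast forms small domains whose borders have been linked to cohesin held at convergent genes. The arms of III also carry the genes for histones H2A and H2B (hta1 and htb1), a cluster of hexose transporter genes (ght), the marker genes ade6 and ura4, and sap1 itself.

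The arms of III resembled those of I and II in base composition but held more retrotransposon remnants. Their bins averaged 63.7% A and T, against 63.9% on the arms of I and II, and 4.65 genes per bin against 5.03. Long terminal repeats (LTRs), left by Tf retrotransposons, lay in 27.3% of the III bins and in 12.5% of those of I and II. Bins with a tRNA gene made 10.1% on III against 8.21% on I and II, and bins with a 5S ribosomal RNA gene 4.04% against 2.63%. Of 8 blank bins on the arms of III, 5 lay at the outer ends, so the extreme ends were not measured. The other 3 began at 880001, 1400001 and 2320001 and have 0 HindIII sites in the reference.

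Some inter-chromosomal pairs described below join bins with related DNA, and their sequences are shown here because the results return to them. All were read from the RefSeq assembly ASM294v3, whose 3 chromosome lengths equal those of the map. The first set is the shared upstream region of the divergent histone genes hta1 and htb1 at III:1412182-1412358 (177 bases) and that of hhf2 and hht2, encoding histones H4 and H3, at II:1364985-1365118 (134 bases). Both are given on the forward strand, with capitals marking AACCCT, a sequence known from histone promoters of this yeast, here on the reverse strand and so read as AGGGTT.

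hta1-htb1: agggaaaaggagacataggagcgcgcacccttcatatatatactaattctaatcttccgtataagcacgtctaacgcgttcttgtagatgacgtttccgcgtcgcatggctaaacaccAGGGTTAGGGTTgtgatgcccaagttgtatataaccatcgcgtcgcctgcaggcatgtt

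hhf2-hht2: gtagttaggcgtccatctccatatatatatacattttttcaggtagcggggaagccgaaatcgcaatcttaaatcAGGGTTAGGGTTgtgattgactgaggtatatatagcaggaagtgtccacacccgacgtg

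Each region held 2 adjacent copies. Cutting the genome into windows of the same length, AACCCT on either strand was found in 5.68% of 177-base windows and in 4.29% of 134-base windows. At least 2 copies were found in 0.197% and 0.119% of them. A match is a description of the letters and not of a bound site.

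The second set is a pair of tRNA-Asn genes, which lie in a bin pair whose contact is described with the other pairs below. The gene on III is at III:1701899-1701972 on the forward strand and the gene on II at II:4210053-4210126 on the reverse strand. Each is printed in the direction of transcription, with capitals marking GGTTCGANNCC, the B box bound by the RNA polymerase III factor TFIIIC.

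tRNA-Asn on III: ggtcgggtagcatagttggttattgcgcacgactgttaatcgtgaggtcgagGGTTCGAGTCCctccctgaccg

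tRNA-Asn on II: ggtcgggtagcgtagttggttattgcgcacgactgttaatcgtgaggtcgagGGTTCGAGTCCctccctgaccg

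The genes matched at 73 of 74 positions. GGTTCGANNCC was found in 96 of 171 annotated tRNA genes (56.1%), and on either strand in 0.063% of all 74-base windows.

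The arms of III made most of their contacts with themselves, but gave a smaller share to their own chromosome than the arms of I and II did. Bins of III placed 77.9% ± 1.96 of their off-diagonal signal within III (SD over 198 bins), against 84.6% ± 2.95 for I (508 bins) and 81.4% ± 2.64 for II (405 bins). The lowest III bin was at 72.3% and the highest at 85.5%, so the distributions of the 3 chromosomes overlapped. A shorter chromosome offers fewer bins of its own to meet, and this share was not corrected for length.

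Within III, the signal went mainly to the own arm. Bins of III placed 70.9% ± 6.75 on their own arm, 3.78% ± 0.964 on the opposite arm and 3.14% ± 4.86 on the zone within 200 kb of the centromere. A further 11.5% ± 0.942 went to I and 10.7% ± 1.15 to II. I has more bins than II, so per partner bin the order turned round: contact was higher with II than with I in 197 of 198 bins, at a ratio of 1.14 ± 0.080 (SD over 198 bins).

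The share within III rose outward along both arms. On the left arm it averaged 75.7% ± 1.87 at 200 to 400 kb from the centromere (19 bins), 78.3% ± 0.928 at 600 to 800 kb (20 bins) and 81.1% ± 1.43 beyond 1000 kb (7 bins). On the right arm it averaged 76.2% ± 1.54 (19 bins), 78.0% ± 1.11 (20 bins) and, beyond 1200 kb, 79.95% ± 2.84 (13 bins). The arms of I and II also had higher shares at 1200 to 1400 kb than at 200 to 400 kb. The left and right arms of I went from 82.3% to 86.3% and from 82.7% to 85.5%. Those of II went from 78.1% to 81.6% and from 80.1% to 82.7%. These distances do not reach the ends of I and II, whose arms run to between 1587 and 3756 kb. Bins listed near those ends had low shares. The ght3 bin of I, 3686 kb out on the left arm, had 71.3%, and a ght7 bin of II, 1587 kb out on the left arm, 69.9%. On III, the share on the opposite arm fell outward, at 5.40% ± 0.437 at 200 to 400 kb on the left arm and 3.21% ± 0.304 beyond 1000 kb. On the right arm it was 4.63% ± 0.455 and, beyond 1200 kb, 2.24% ± 0.226.

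**Figure D1:**
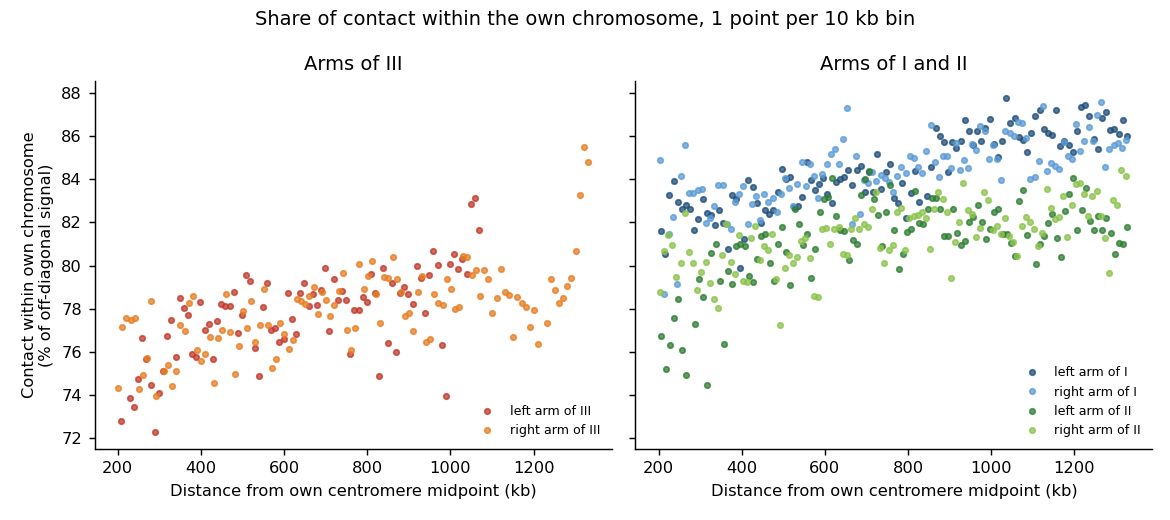
Each point is a 10 kb bin, with its distance from the own centromere midpoint in kb on the x axis and the percent of its off-diagonal signal that stays within its chromosome on the y axis, for the arms of III on the left and those of I and II on the right. Points of III rise outward to the outermost bins of the right arm (85.5% at the highest), and a left arm bin near 1000 kb, which holds ura4, lies low at 73.97%.

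The bins with the highest share within III lay at its ends. They were the outermost ones on the right arm, 2420001 with 85.5% and 2430001 with 84.8%, which hold no named protein-coding gene in the annotation, then 2410001 with 83.3%, beside ade5 of purine synthesis. On the left arm they were 40001 with 83.1%, beside the nickel transporter gene nic1, and 50001 with 82.9%, beside the catalase gene ctt1. Of the 17 bins at 80% or more, 11 lay within 100 kb of an outermost bin. The bin 30001, outermost on the left, had 81.6%. The end bins had few reads, with 25223 in 2420001 and 10552 in 2430001.

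The lowest shares lay near the centromere. The lowest was 72.3% at 810001, with gir2 and the transcription factor gene fil1, followed by 72.8% at 890001, with sfh1 of the RSC remodelling complex. Bins 860001 (eis1, sfk1), 870001 (snx12, dim1) and 1390001 (ole1, gst4) had 73.4%, 73.8% and 73.97%. These 5 lay 209 to 291 kb from the centromere. The ura4 bin, far out on the left arm, also had 73.97%.

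Contact within the arms of III fell off with separation more slowly than on the other arms. From 20 to 500 kb the slope of log10 contact on log10 separation was -1.33 over both arms of III, with -1.34 on the left and -1.33 on the right. On the arms of I and II it was -1.39 ± 0.025 (SD, n = 4 arms), between -1.37 on the left arm of I and -1.43 on its right arm. Both III arms were shallower than each of the other 4, where the SD over all 6 arms was 0.034. The slope was not constant, since from 20 to 100 kb alone it was -1.15 on both III and the other arms. Over that range the order of the arms was lost. The left arms of I (-1.138) and II (-1.132) were shallower than the left (-1.154) and right (-1.140) arms of III, and the right arms of I and II were steeper.

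In levels, mean corrected contact within the arms of III exceeded that on the arms of I and II at every separation compared. At 50 kb it was 1133 ± 209 on III (SD over 186 pairs), against 1068 ± 190 on I and II (886 pairs). At 200 kb it was 150 ± 27.7 against 132 ± 24.9, and at 500 kb 49.9 ± 10.5 against 43.2 ± 10.1. The ratio grew over the shorter separations, with 1.06 at 50 kb, 1.08 at 100 kb, 1.13 at 200 kb, 1.17 at 300 kb and 1.16 at 500 kb. The SD over pairs was wider than each of these differences, but the mean of each III arm lay above that of all 4 other arms at all 5 separations. This ended by 800 kb, where the left arm of III was the lowest of the 6 at 25.3 and the right arm the highest at 31.2. At 800 kb the left arm has only its innermost and outermost bins left to pair.

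**Figure D2:**
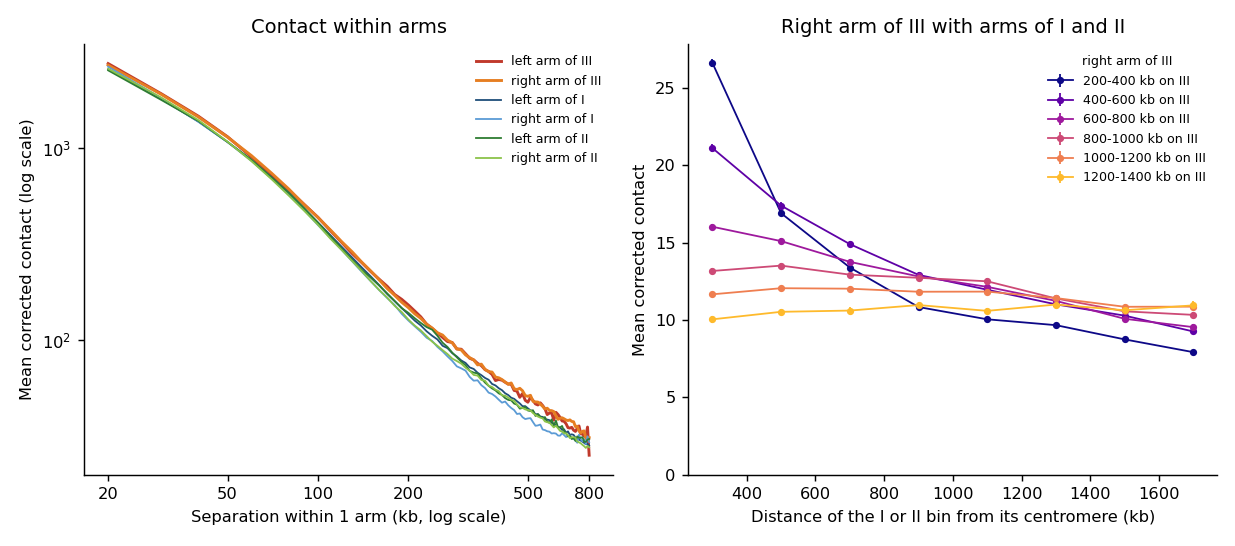
The left panel gives the mean corrected contact of bin pairs within 1 arm against their separation in kb, both on log scales, with 1 line per arm, and the 2 lines of III run above the others from 50 to 500 kb. The right panel gives the mean contact of right arm bins of III with the arms of I and II, by the distance of the partner from its own centromere in kb, with 1 line per distance class on III and 95% Poisson intervals that are mostly smaller than the points; the innermost class falls from 26.6 to 7.93 and the outermost stays near 10 to 11.

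The 2 arms of III met each other more than arms of different chromosomes did at the same distances from the centromere. The ratio to that expectation was 1.51 (interval 1.503 to 1.517, 193571 reads over 9632 bin pairs). For I it was 1.62 (1.61 to 1.63) and for II 1.46 (1.46 to 1.47) over the distances that the arms of III span. Over these distances III lay between the other chromosomes and the 3 intervals, which cover counting error only, do not overlap. Under other settings the III ratio ran from 1.45 to 1.55, and I and II are not given under them, so this order holds for the main setting only. The order of I and II depended on the distances included, since over their whole arms the ratio was 1.36 for I and 1.55 for II.

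Contact between the arms was strongest close to the centromere and fell outward on either side. Bins 200 to 400 kb out on both arms of III met at 44.9 (interval 44.2 to 45.6), those 400 to 600 kb out at 27.8 (27.3 to 28.4) and those 800 to 1000 kb out at 17.6 (17.2 to 18.1). The lowest classes were 12.2 (11.6 to 12.8), for 1000 to 1200 kb on both arms, and 12.9 (12.4 to 13.4), for 800 to 1000 kb on the left with 1200 kb and more on the right. The outermost classes of both arms met at 14.9 (13.9 to 15.9), above their neighbouring classes.

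A centromere between the bins made little difference to contact at a given separation on III. At 600 kb, pairs across the centromere of III had 1.00 times the contact of pairs within an arm, at 700 kb 0.960 times and at 800 kb 1.01 times. On I the same ratios were 1.30, 1.23 and 1.13, and on II 0.949, 0.935 and 0.925. The intervals of the III means across and within overlapped at 600 and 800 kb and at 700 kb (34.4 to 36.4 across, 36.1 to 37.6 within).

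With the other chromosomes, the arms of III met the arms of I and II a little less than I and II met each other at the same distances. The ratio was 0.953 (interval 0.951 to 0.954, 2089006 reads over 180774 bin pairs). It was not even over the arms. The left arm of II stood out on both sides of III, at 1.101 with the left arm of III (1.096 to 1.107) and 1.112 with its right arm (1.107 to 1.116). The other 6 pairs of arms lay between 0.891, for the right arms of III and I, and 0.961, for the left arm of III with the right arm of II. The left arm of II was not raised with every arm, at 1.16 with the right arm of I but 0.978 with the left arm of I, and the right arms of I and II met at 1.06. With the outermost 100 kb of each arm left out, the left arm of II kept 1.13 and 1.14 with the arms of III.

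Which parts of I and II a III bin met depended on its distance from the centromere. Bins 200 to 400 kb out on the left arm of III met bins of I and II 200 to 400 kb out at 25.5 (25.2 to 25.8) and bins 1600 to 1800 kb out at 8.14 (7.98 to 8.31), a ratio of 3.13. On the right arm this ratio was 3.36. The preference weakened outward, to 1.597 at 600 to 800 kb on the left arm and 1.68 on the right. Beyond 1000 kb on the left arm, contact was 10.1 (9.86 to 10.4) with bins at 200 to 400 kb and 9.76 (9.44 to 10.1) with bins at 1600 to 1800 kb. Beyond 1200 kb on the right arm the order was turned round, at 10.1 (9.84 to 10.3) and 10.95 (10.7 to 11.2), and the highest contact, 11.01, was with bins at 1200 to 1400 kb.

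Contact of III arm bins with the centromeres fell outward in the same way, apart from 1 bin. With the window of bins within 50 kb of the centromere of I, bins of the right arm averaged 22.0 at 200 to 400 kb, 8.62 at 600 to 800 kb, 7.33 at 800 to 1000 kb, 5.83 at 1000 to 1200 kb and 5.91 beyond. Bins of the left arm averaged 17.9 at 200 to 400 kb and 7.84 at 600 to 800 kb but 16.3 at 800 to 1000 kb, before 4.48 beyond. Leaving out the bin that holds ura4, a choice made after its value was seen, the class fell to 7.32 (6.78 to 7.89) over 19 bins.

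The ura4 bin was in strong contact with the centromere of I. The gene ura4, at III:115589-116625 on the reverse strand, encodes orotidine decarboxylase of uracil synthesis and is a widely used selectable marker in this yeast. Its bin, 110001, lies 989 kb from the centromere of III and met the centromere window of I at 187.6, against a median of 5.86 over the bins within 100 kb of it on the arm, whose values ran from 3.58 to 9.24. The ratio was 32 (interval 29.9 to 34.2, 901 reads) and 25.4 in reads without the correction. Its neighbours 100001 (rhp16, rhp7) and 120001 (alg11, enp2) met that window at 4.57 and 7.99, on 27 and 37 reads.

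This contact peaked at the centromere of I and fell away on both of its sides. On the left arm of I, the ura4 bin had 389.2 with the bin 10 to 20 kb from the centromere midpoint, 72.5 at 40 to 50 kb, 29.6 at 90 to 100 kb and 14.3 on average at 100 to 200 kb. On the right arm it had 264.4 at 20 to 30 kb, 114.5 at 40 to 50 kb, 36.3 at 90 to 100 kb and 19.7 at 100 to 200 kb. The 6 bins within 30 kb of it on III averaged 9.38 and 9.11 over 100 to 200 kb of the left and right arm of I. From 500 to 1000 kb on either arm the ratio of the ura4 bin to these 6 bins lay between 0.913 and 1.15. The highest value, 389.2, is near the mean contact of III bins 100 kb apart on 1 arm, 433.4.

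**Figure D3:**
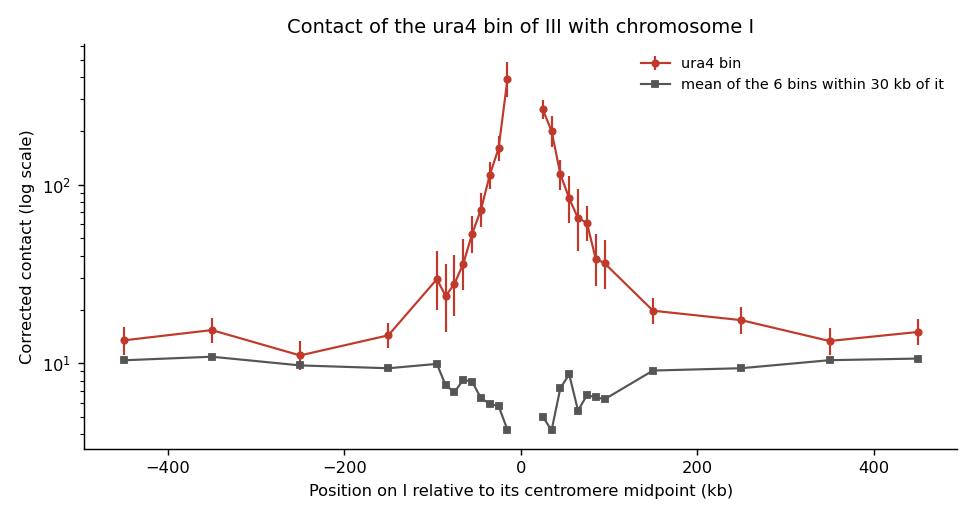
The x axis is the position on chromosome I relative to its centromere midpoint in kb, left arm negative, and the y axis the corrected contact on a log scale, in 10 kb bins up to 100 kb and means over 100 kb beyond, to 500 kb on each side. Red points with 95% Poisson intervals are the ura4 bin of III, which climbs to 389.2 beside the centromere, and grey squares the mean of the 6 III bins within 30 kb of it, which stays under 11 over the stretch shown.

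The same bin was also raised with the other centromeres, less strongly. It met the window of centromere II at 58.3, 6.96 times the median of the bins around it (6.02 to 8.00, 197 reads), and that of centromere III at 37.3, 2.98 times (2.42 to 3.63, 99 reads). Its contact with the adjacent bins of III was in their usual range, at 5293 with the left neighbour and 4879 with the right, against 4579 to 6286 for adjacent pairs up to 30 kb away. The bin gave 14.8% of its signal to I, against 9.83% to 12.1% for those 6 bins. It shares 0 of its 9848 distinct 30-base words with the bins within 100 kb of the centromere midpoint of I in the reference. The labels do not say where ura4 lies in this strain, and what underlies the contact was not tested.

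Few other III bins stood out towards the centromeres. At 2 times or more the median of the bins around them and 30 reads or more, 3 of 396 combinations of a III arm bin with the centromere of I or II were raised, against 15 of 1826 for the arms of I and II with the centromeres of other chromosomes; over all arms 0.81% were. Of these 3, ura4 gave 2. The third was 810001, with gir2 and fil1, which met centromere II at 56.2, 2.501 times the median around it (2.25 to 2.78, 355 reads). The bin of ade6, also a marker gene in common use, was not among the raised ones. With the centromere of III itself, 2290001 (gst2, osr2) was the next after ura4, at 2.09 (1.503 to 2.82, 42 reads). The middle 90% of the III ratios with I and II ran from 0.743 to 1.41.

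Over all distances from the centromeres, pairs of single bins raised between chromosomes were rarer on the arms of III than between I and II. Of 180774 pairs of a III arm bin with an arm bin of I or II, 185 had 2 times or more the expected contact and 30 reads or more (0.102%). Between I and II these were 1129 of 205740 pairs (0.549%), and over all such pairs 0.34%. The pairs of I with II were not limited to the distances that III spans. Bins on the left arm of I reach 3756 kb from the centromere and those on the right arm of III 1331 kb. The 185 pairs involved 66 III bins, 31 of which had only 1. They were uneven over the arms, with 152 on the right arm of III and 161 joined to the left arm of II. The remaining partners were 11 on the left arm of I, 10 on the right arm of II and 3 on the right arm of I. For size, the right arm holds 112 of the 198 III bins. Of the 180774 pairs, 11782 joined the left arm of II to the left arm of III and 15344 to its right arm.

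Many of these pairs lay in a broad zone of contact between the right arm of III and the left arm of II. Of 256 pairs joining bins 1380001 to 1540001 of III with bins 1250001 to 1410001 of II, 88 were raised. These limits were set after the pairs were seen, and both stretches lie near their centromeres. The highest pair was 1450001 of III, with gpi8 of the GPI transamidase, and 1310001 of II, with the nuclear transport receptor gene kap109. It had 116.5 against an expected 22.4, a ratio of 5.204 (4.36 to 6.16, 134 reads).

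The kap109 contact declined gradually with distance on III. Against the same kap109 bin, III bins 1430001 (apn1, epe1), 1440001 (nnr2, spt3), 1460001 (gcn3, elp4) and 1470001 had ratios of 3.52, 4.501, 2.61 and 2.46. Over squares around the peak, the ratio was 3.40 within 20 kb (3.22 to 3.58), 2.04 from 20 to 50 kb (1.97 to 2.104), 1.63 from 50 to 100 kb (1.595 to 1.66) and 1.31 from 100 to 150 kb (1.29 to 1.34). Averaged over the kap109 bin and its neighbour 1300001, a lesser peak of 3.66 lay at 1510001, on 43 reads.

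**Figure D4:**
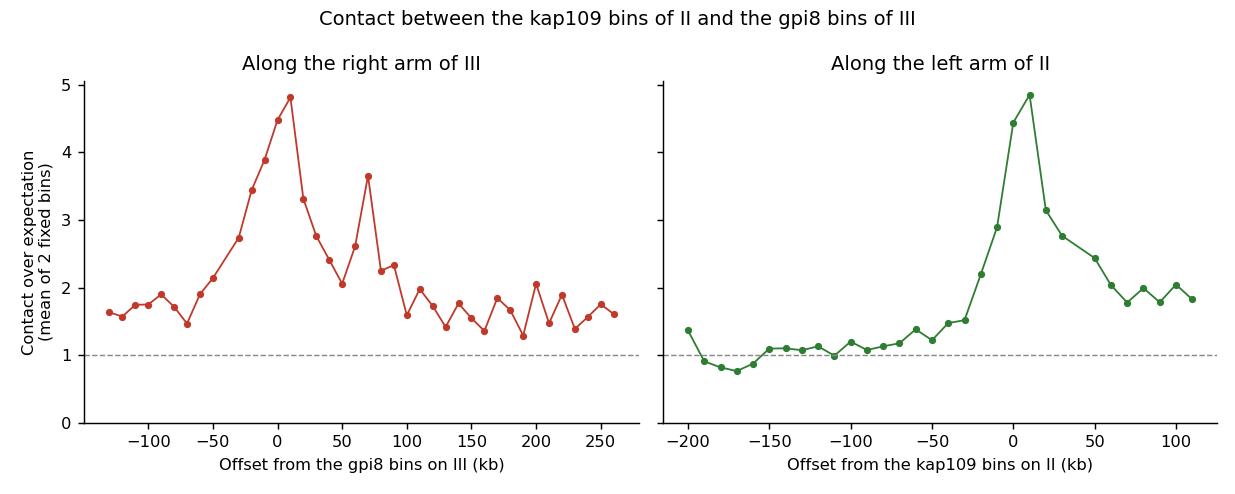
Ratios of contact to the mean of pairs at the same distances from the centromeres, averaged over the 2 bins held fixed; on the left bins 1300001 and 1310001 (kap109) of II are fixed and the x axis is the offset in kb along III from 1440001, and on the right bins 1440001 and 1450001 (gpi8) of III are fixed and the offset runs along II from 1300001. The dashed line marks a ratio of 1; the profiles peak at 4.81 and 4.85, and the one along III does not go below 1.29 over the stretch shown.

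The histone bins lie inside this zone. Bin 1410001 of III, with hta1 and htb1, met bin 1360001 of II, with hhf2 and hht2, at 79.2 against an expected 23.9, a ratio of 3.31 (2.64 to 4.10, 84 reads). The pairs next to it that carry values had 40.5 to 55.6. The ratio was above the 2.04 and 1.63 of the squares around the peak that lie at about this offset. Those values are means over 65 and 280 pairs, whereas this pair was listed because its ratio was among the highest. A pair picked in that way lies above such means by its choice. Whether it stood out from the other single pairs at this offset was not tested. The bins share 0 words of 30 bases, and the repeat shown above is shorter than that. The other histone genes lie on I and on II, away from this zone.

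Other raised pairs fell off within 10 kb on III. Bin 810001, with gir2 and fil1, met 2240001 of I, with the microtubule plus-end gene mal3, at 71.1 against an expected 8.42, a ratio of 8.45 (6.84 to 10.3, 96 reads), the highest of the III pairs with 30 reads or more. The III bins on either side had 10.6 and 13.5 with the mal3 bin, while all pairs next to this one ran from 10.6 to 34.5. The same III bin met 1640001 of I, with gid7 and apc11, at 6.88 times the expectation (5.27 to 8.82, 62 reads), with 12.2 and 6.09 on either side against its own 49.9. Both ratios were higher in reads without the correction, at 12.2 and 8.32.

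The pair of 1590001, with the alcohol dehydrogenase gene adh1, and 3370001 of I, with rmt2 and alp31, had a ratio of 7.32 (5.42 to 9.68) on 49 reads. Its neighbours had 0.702 and 1.15 times the expectation. In reads without the correction the ratio was 2.63, and the I bin has 1 HindIII site and the III bin 2.

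Bin 1450001 had a further partner at the far end of II. It met 4440001 of II, with the phosphate genes pho84 and pho1, at 4.84 times the expectation (3.56 to 6.44, 47 reads), and its neighbour 1440001 did so at 4.76 (55 reads). The bins 20 and 10 kb further out on III had 1.31 and 1.68. The pho84 bin lies 2823 kb from the centromere of II, against 351 kb for the gpi8 bin on III. The raised contact was not limited to that bin of II. Averaged over 1440001 and 1450001, the ratio was 4.80 at 4440001, with 2.48 and 2.46 at the II bins on either side. It was 2.58 at 4480001 and 2.14 at 4370001, and 0.991 at 4360001.

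The remaining pairs among the 10 highest had ratios of 3.06 to 3.87. These were 1420001 of III (tti1, gdh1) with 1300001 of II (ldb1, sqs1) inside the zone, 2380001 (vms1, hom2) with 1270001 of II (rps2501, mad1), and 1330001 (gdh2, hst2) with 350001 of II (tgp1, mug96). The last was 1700001 of III, with the acetyl-CoA synthetase gene acs1, and 4210001 of II, with rpn12 and rtt109, at 3.33 (2.39 to 4.52, 41 reads). This is the pair that holds the tRNA-Asn genes shown above, each beside a 5S ribosomal RNA gene, and the bins share 124 words of 30 bases. Its neighbouring pairs had 10.2 to 12.6, against 34.1. The part of reads that could be placed in either copy was not tested.

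Within III, raised pairs at long range were few. Of 6511 pairs on 1 arm at 200 kb or more, 10 reached 2 times the mean of their separation with 30 reads or more (0.154%), against 206 of 60602 on the arms of I and II (0.34%); over all arms 0.322% did. The highest was 1580001 (snp27, wtf13) with 2310001 (taf13) at 2.22 (1.597 to 2.99, 42 reads), 730 kb apart on the right arm, and these bins share 32 words of 30 bases. The next were 1490001 (pfl4, ubp5) with 2370001 (utp25, pcy1) at 2.14 and 60001 (rnc1, rrp45) with 270001 (mae2, ent3) at 2.12. All 5 highest lay under 1.5 in reads without the correction, between 0.66 and 1.47.

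Pairs of opposite arms were set against the mean of opposite-arm pairs of all 3 chromosomes in the same distance classes, which is higher than the mean between chromosomes used above. On that scale, 0 of 9632 pairs between the arms of III reached 2 times the mean with 30 reads or more, against 3 of 19436 on I and II over the same distances; over all arms 0.0103% did. The nearest were 230001, with the hexose transporter gene ght1, with 2250001 (bgs4, a glucan synthase gene) at 1.95 (1.32 to 2.79, 30 reads) and the same bin with 1540001 (git3, rec7) at 1.91 (1.30 to 2.71, 31 reads). The ght1 bin has 1 HindIII site.

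The arms of III were divided into domains about as densely as the other arms. For each bin, mean contact between the 50 kb on either side was divided by the mean of such values on its chromosome. The log2 of this ratio is its insulation score, so score levels are not compared between chromosomes. Minima of the score counted as boundaries where they lay 0.1 or more under whichever flanking maximum was larger. On the arms of III, 26 of 162 scored bins were boundaries (16.0 per 100), against 141 of 822 on the arms of I and II (17.2 per 100); over all arms 17% were. The spacing had a median of 50 kb on III (quartiles 40 and 70, n = 23) and of 60 kb on I and II (40 and 70, n = 132). Median depth was 0.26 on III and 0.24 on I and II, each with an SD of 0.13 over boundaries. The left arm of III had 13 boundaries at a median depth of 0.30 and the right arm 13 at 0.26.

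The deepest boundary of III was at 1310001, which holds ade6 of adenine synthesis and the checkpoint kinase gene bub1, at a depth of 0.53 on the log2 scale. That depth is from the flanking maximum towards the centromere, which lies in the zone left out here. From the outer flank it was 0.489. Contact across this boundary averaged 820.9 (810.3 to 831.6, 22854 reads). The bins on either side of it, 20 kb apart, had 0.713 of the right arm's mean at that separation. On the left arm the deepest were 260001, with lat1 of the pyruvate dehydrogenase complex, at 0.50, and 550001, with ast1 and the ribosomal protein gene rps1201, at 0.49.

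The other boundaries among the 10 deepest ran from 0.31 to 0.47. They were 1970001 (sdc1 of the COMPASS methyltransferase complex, hnt3) at 0.47, 690001 (sfc4, a TFIIIC subunit gene, rml2) at 0.47, 460001 (coq5, the nuclease gene mus81) at 0.43 and 770001 (dcr2, the transaldolase gene tal1) at 0.40. After these came 2090001 (rps2, ret3) at 0.39, 140001 (nip7, atp23) at 0.35 and 2220001 (tif6, the myosin gene myo52) at 0.31. Of all 26, 7 were 0.40 or deeper, and 15 reached a depth of 0.1 on both flanks. Of the 141 boundaries on I and II, 20 were 0.40 or deeper and 84 reached 0.1 on both flanks.

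**Figure D5:**
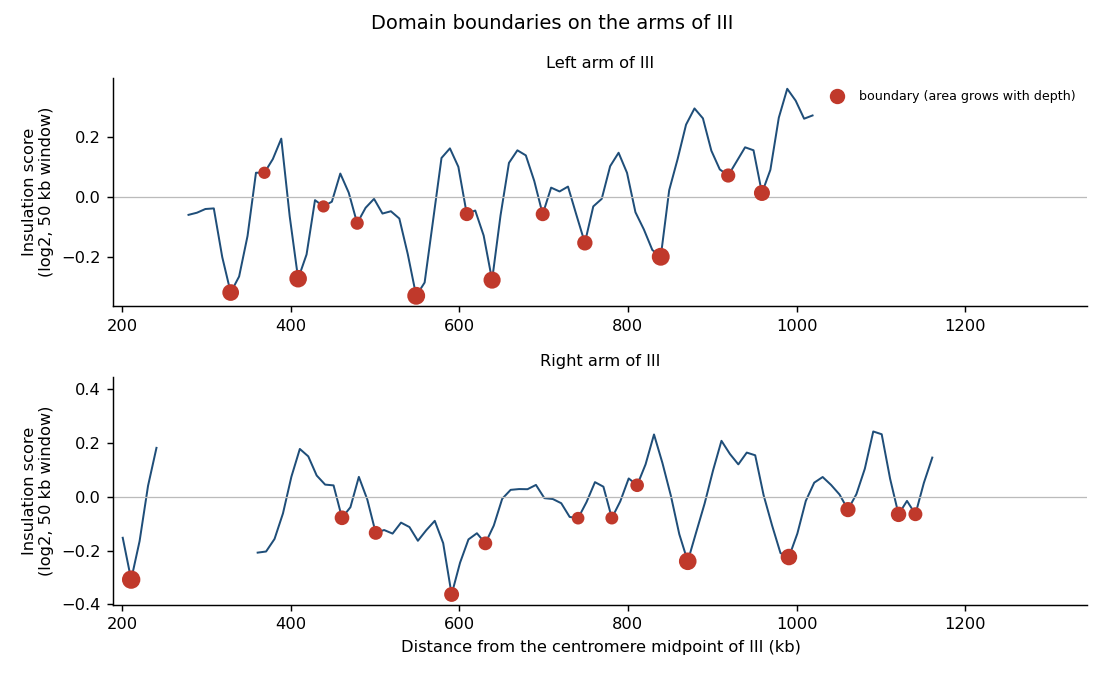
The insulation score (log2, 50 kb window) along the left arm of III (top) and the right arm (bottom), against distance from the centromere midpoint in kb; gaps are bins whose window holds a blank bin. Red discs are the 26 boundaries, with an area that grows with depth, and the deepest (0.53, bub1 and ade6) is the innermost one of the right arm.

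Nearly every boundary of III held a convergent gene pair, that is, neighbouring genes transcribed towards each other. This was so in 25 of 26 boundary bins (96.2%), against 103 of 136 other scored bins of III (75.7%). On I and II it was 135 of 141 (95.7%) against 533 of 681 (78.3%). The exception on III was 1560001, with hmg1 and nup211, at a depth of 0.26. Boundary bins of III also held 5.23 ± 1.31 genes, against 4.56 ± 1.29 in other scored bins (SD over bins), and 62658 ± 12887 reads against 55681 ± 14335.

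Ribosomal protein genes lay in 7 of 26 boundary bins of III (26.9%), against 15 of 136 other scored bins (11.03%). On I and II they lay in 22 of 141 (15.6%) against 67 of 681 (9.84%). The 7 bins hold rpl2302 beside bub1 and ade6, rps1201, rpl1201, the group of rps2, rps20 and rpl15, rpl1902, rpl1202 and rpl3702. Genes for tRNAs lay in 2 boundary bins of III (7.69%, against 11.03% of other bins), those of tRNA-Glu at 140001 and tRNA-His at 1840001. A 5S gene lay in 1, at 1690001 (3.85%, against 2.21%), and LTRs in 6 (23.1%, against 30.1%). On I and II the order was reversed for each of these. Boundary bins there held tRNA genes in 14.2% against 7.49% of other scored bins, 5S genes in 2.13% against 2.64% and LTRs in 13.5% against 11.6%.

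Gene groups differed little in how much of their contact stayed within III. Bins with a tRNA gene had a median of 77.3% (20 bins), against 78.1% without one, and 8 of 20 lay above the median of the arms of III. Bins with a 5S gene had 77.0% (8 bins), against 78.2%, and 1 of 8 lay above that median. LTR bins had 78.4% (54 bins) against 77.9%, and 31 of 54 lay above it. Bins with a ribosomal protein gene had 78.2% (24 bins) against 78.1%.

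Single loci of the arms fell within these ranges unless named above. The 4 ght genes of III lie next to each other at 200001 to 230001, 869 to 899 kb from the centromere, and had 78.7% (ght6), 79.0% (ght5), 78.7% (ght8) and 76.0% (ght1) of contact within III. Their insulation scores, 0.15 to 0.29, lay above the mean of III, and none of these bins was a boundary. The sap1 bin, 560001, had 74.9%, lower than its side of the arm at 400 to 600 kb (77.5% ± 1.22, 20 bins), and lies beside the boundary at 550001. The histone bin 1410001 had 75.1%, and the ade6 and bub1 bin 77.2%.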

How the data were processed

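Hi-C libraries of 2 samples, 1 group, gave 1 matrix of contact signal per pair of 10 kb bins, iteratively corrected and deposited by the authors, per the file headers. Per the submitters' processing notes, the aligner was Bowtie2 2.1.0 and the build ASM294v2. Pooling of the samples is not stated. The R1 tag in the header names 1 replicate, and the map was used as 1 sample.

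Reads were recovered from the deposited signal as whole multiples of 1 factor per bin. Of the values under 30 reads, 100% came within 0.05 of a whole number, and the reads made 99.88% of the header's 37571192. Expected contact between chromosomes and between arms was averaged over inter-chromosomal arm pairs whose bins fell into the same classes, each 100 kb wide, of distance to the middle of their centromeres, for the ratios of III arms with I and II over I with II pairs alone. Single pairs between chromosomes were set against all inter-chromosomal arm pairs of their class, single pairs of opposite arms against all opposite-arm pairs of their class, and pairs within an arm against the mean of their separation over all arms. Insulation windows of 5 bins had to be complete. Genes came from RefSeq ASM294v3.

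The named genes were at most 2 nearest the middle of the bin, and list members, in the 10 deepest boundaries, the 10 highest pairs between chromosomes, the 5 highest pairs of the same and of opposite arms, and the 5 highest and 5 lowest bins by share within III, with neighbours within 2 bins merged. The lists were tRNA, 5S, LTR, ribosomal protein and histone genes, ght1 to ght8, ade6, bub1, ura4, sap1 and taz1. Members and lists were chosen with earlier results of these data known. Contact of single bins with centromeres, the zone of II and III, and ribosomal protein genes per boundary were described after seeing the data.

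On simulated data (400 bins) all reads under 30 were recovered, 17 of 17 boundaries were found among 19 minima, and 19 of 20 raised pairs were called, beside 5 others. The simulated pairs were raised 4 times, above the limit of 2 times used for calls, and all simulated boundaries had the same strength. Recovery of weaker pairs and of shallower boundaries was therefore not measured. Python 3.11.15, NumPy 2.4.6, SciPy 1.17.1 and matplotlib 3.10.9 were used.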

Additional observations from a re-analysis of the deposited data

How the results depend on the processing

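Of 35 alternatives over 6 results, 12 stayed within the spread used or near the count reported, 23 moved further and 0 turned a direction round. A count has no direction, so this 0 does not cover the boundaries or the raised pairs. The spread was the SD over 6 arms for the decay exponent, 5 of the 12, and for the ratios and the share the counting interval, which is narrow; counts were held to 1.5 times. The decay exponent of III was -1.15 from 20 to 100 kb alone, where the left arms of I and II were shallower than both arms of III. Contact between the arms of III was 1.46 as a median over pairs, 1.47 in reads without the correction, 1.52 without the 5% least covered bins, 1.45 beyond 300 kb from the centromere and 1.55 without the outermost 100 kb of each arm. Contact of III with I and II under the same settings was 0.920, 0.934, 0.960, 0.934 and 0.974. The share within III was 77.6% without the correction, 77.8% without the 5% lowest bins, 78.1% beyond 300 kb, 77.6% without the outermost 100 kb and 78.1% as a median over bins. Boundaries on III numbered 13 with a 100 kb window, 15 from the lower flanking maximum, 47 without the correction and 16 without the 5% lowest bins, where fewer bins (97) were scored. The counts on I and II were 92, 84, 227 and 95 under these settings. Boundaries per 100 scored bins were 16.0 on III and 17.2 on I and II in the main setting. The order turned round at a minimum depth of 0.2 (12.3 against 11.8), without the correction (29.0 against 27.6) and without the 5% lowest bins (16.5 against 15.9). It held with windows of 30 and 100 kb, from the lower flanking maximum and with blank bins allowed. Raised pairs of III numbered 27 at 3 times the expectation, 568 at 20 reads and 962 without the correction, against 470, 1951 and 2356 for I with II. An alternative chosen after seeing the data, with blank bins allowed, gave 24 boundaries. The cause of these moves was not tested. Leaving out a replicate was not possible, since both samples share 1 map. No paired analysis was possible because the matrix has no column per replicate. A median of 11 reads per pair between chromosomes leaves most single pairs under the 30 reads needed.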
